A study of Mus musculus with 12 samples.

Results

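Leukocytes leave the blood by a sequence of adhesive contacts with the vessel wall, and 9 genes that encode both sides of these contacts were examined in injured mouse lung. On the endothelial side were Sele (E-selectin), Selp (P-selectin), Icam1, Icam2 and Vcam1. On the leukocyte side were Selplg (the selectin ligand PSGL-1) and the integrin chains Itgal, Itgam and Itgb2. They were found by gene symbol among the 55414 genes of the table, and all 9 had a row. The measurement was RNA-seq of whole lung in 12 mice of C57BL/6J background, given lipopolysaccharide (LPS, from Escherichia coli O111:B4) into the airways, with lungs taken on the fourth day. In 6 mice (IL-10 B-KO) the floxed Il10 gene was deleted by Mb1-Cre, which is expressed from the Cd79a locus in the B lineage, and 6 mice (IL-10 B-WT) served as wild-type controls. Every group had received LPS, so no unexposed lung was compared. Neither the labels nor the methods give the sex or age of these mice, or say whether the controls carried Cre or the floxed allele. The lungs are called control and knockout lungs, WT1 to WT6 and KO1 to KO6 by replicate number.

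In the textbook order, selectins capture flowing leukocytes and let them roll. E- and P-selectin bind PSGL-1 when it carries the right sugars. P-selectin is stored in granules of endothelium and platelets and can reach the surface without new transcription, whereas E-selectin has to be made after stimulation. Chemokine signals then activate integrins, and the leukocyte stops. LFA-1, made of the Itgal and Itgb2 chains, binds ICAM-1 and ICAM-2, and Mac-1, made of Itgam and Itgb2, binds ICAM-1 among other ligands. VCAM-1 binds VLA-4, whose alpha chain is Itga4. ICAM-2 is held at high levels on resting endothelium, whereas ICAM-1 and VCAM-1 rise with inflammatory stimuli, ICAM-1 in lung epithelium as well. Entry of neutrophils into lung capillaries can also proceed with little selectin or CD18 integrin, depending on the stimulus.

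Sele (ENSMUSG00000026582) lay at chr1:164048234-164057677 and Selp (ENSMUSG00000026580) at chr1:164115264-164150026, both on the plus strand of GRCm38, with 57586 bases between them. Itgal (ENSMUSG00000030830, chr7:127296260-127335138) and Itgam (ENSMUSG00000030786, chr7:128062640-128118491) shared chromosome 7, also on the plus strand. Icam1 (ENSMUSG00000037405, chr9:21015985-21028817) and Itgb2 (ENSMUSG00000000290, chr10:77530252-77565708) were on the plus strand. Icam2 (ENSMUSG00000001029, chr11:106377656-106388075), Vcam1 (ENSMUSG00000027962, chr3:116109949-116129688) and Selplg (ENSMUSG00000048163, chr5:113818536-113832644) were on the minus strand.

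The 250 bases before the start are shown for Sele, Selp, Itgam and Icam1, the 4 members matched in the promoter table used here. They come from RefSeq on GRCm38.p6, plus strand, 5′ to 3′, at chr1:164047984-164048233, chr1:164115014-164115263, chr7:128062390-128062639 and chr9:21015690-21015939 in the order printed. Capitals mark matches on either strand to the AP-1 motif TGANTCA, the promoter box TATAAA, the myeloid PU.1 core GAGGAA and another core of the ETS family, CCGGAA.
Sele: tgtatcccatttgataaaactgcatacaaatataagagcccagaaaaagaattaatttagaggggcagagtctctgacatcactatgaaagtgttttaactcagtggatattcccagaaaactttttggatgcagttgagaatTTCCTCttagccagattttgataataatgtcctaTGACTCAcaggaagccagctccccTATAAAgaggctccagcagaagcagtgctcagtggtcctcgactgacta
Selp: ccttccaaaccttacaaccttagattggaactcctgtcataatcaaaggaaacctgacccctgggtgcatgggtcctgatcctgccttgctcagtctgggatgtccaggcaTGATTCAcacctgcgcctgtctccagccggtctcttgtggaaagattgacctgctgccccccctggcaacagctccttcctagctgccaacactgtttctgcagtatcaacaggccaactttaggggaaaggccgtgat
Itgam: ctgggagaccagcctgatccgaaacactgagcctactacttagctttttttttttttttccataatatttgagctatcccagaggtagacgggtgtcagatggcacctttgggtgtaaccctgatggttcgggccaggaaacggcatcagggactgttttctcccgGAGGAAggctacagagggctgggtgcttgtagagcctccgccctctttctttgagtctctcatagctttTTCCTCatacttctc
Icam1: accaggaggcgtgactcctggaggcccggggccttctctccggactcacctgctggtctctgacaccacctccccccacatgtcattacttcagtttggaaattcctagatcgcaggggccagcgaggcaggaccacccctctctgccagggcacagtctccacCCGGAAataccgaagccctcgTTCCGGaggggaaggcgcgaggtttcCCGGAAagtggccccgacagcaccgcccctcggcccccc
Positions count back from the RefSeq start, which for Icam1 lies at 21015940, 45 bases before the GENCODE start given for the gene, and for the other 3 genes is the same base. The Sele window held a GAGGAA match on the minus strand from -107 to -102 relative to the start, an AP-1 match from -73 to -67 and a TATA match from -49 to -44. The Selp window held an AP-1 match from -139 to -133. In Itgam, GAGGAA matches lay from -84 to -79 and, on the minus strand, from -15 to -10. Icam1 held 3 CCGGAA matches, starting at -86, -65 and -39, the middle of them on the minus strand. No matches overlapped. Among 32851 promoter windows of this length, AP-1 was in 6.75%, TATAAA in 12.4%, GAGGAA in 23.3% and CCGGAA in 12%. A match is a description of the letters, not a site in use.

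Levels are in TPM, a share of a library's transcripts scaled to gene length and to a fixed total, so that the sequencing depth behind them is unknown. Il10 itself was at 0 to 0.88 TPM and overlapped between genotypes, so it gave no check of the deletion in whole lung. Cd79a, which encodes a B cell receptor chain at the locus that carries Mb1-Cre, was at 15.3 to 258.6 TPM in control lungs and at 0 to 5.73 TPM in knockout lungs, with no overlap. WT1 (15.3 TPM) and KO2 (4.35 TPM) were on the side their labels give. These 2 lungs stand apart for the adhesion genes. WT1 was the highest control lung for 8 of the 9 members, all but Icam2, and KO2 was the lowest knockout lung for 7, all but Sele and Icam2. The study left both out of some plots, on grounds not given in the sources used here. Results are given with all 12 lungs first, then over 5 lungs per genotype without these 2. Leaving out the highest control and the lowest knockout moves the group means apart by construction, so the second value is no independent support for the first.

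In whole lung, fewer cells of a type and less RNA per cell cannot be told apart. The lungs held RNA of all the relevant cells. The sum of 12 endothelial markers was 2391 to 5177 TPM in control and 2480 to 4554 TPM in knockout lungs, and the sum of 11 neutrophil markers was 395 to 2587 and 1180 to 7919 TPM.

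Across the 12 lungs no member passed the threshold used here in limma (adjusted p of 0.05 or less and a log2 fold change of 1 or more in size), among the 8 of 9 members tested. Of all 15148 genes tested, 0.495% passed in either direction. Sele, below 1 TPM in more than 6 lungs, was outside the fit. Itgam, Itgb2 and Selplg had an unadjusted p of at most 0.05 and were higher in IL-10 B-KO, which is 37.5% of the tested members beside 6.83% of all genes higher and 5.71% lower at that p. All of them belong to the leukocyte side, and no endothelial member reached it. The fitted difference (IL-10 B-KO minus IL-10 B-WT, on log2(TPM + 1)) was above 0 for 7 members and below 0 for Icam2, with a median of 0.78. Over all tested genes 63.2% were above 0, with a median of 0.10. No member separated the genotypes completely, as 1.02% of all tested genes did.

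**Figure D1:**
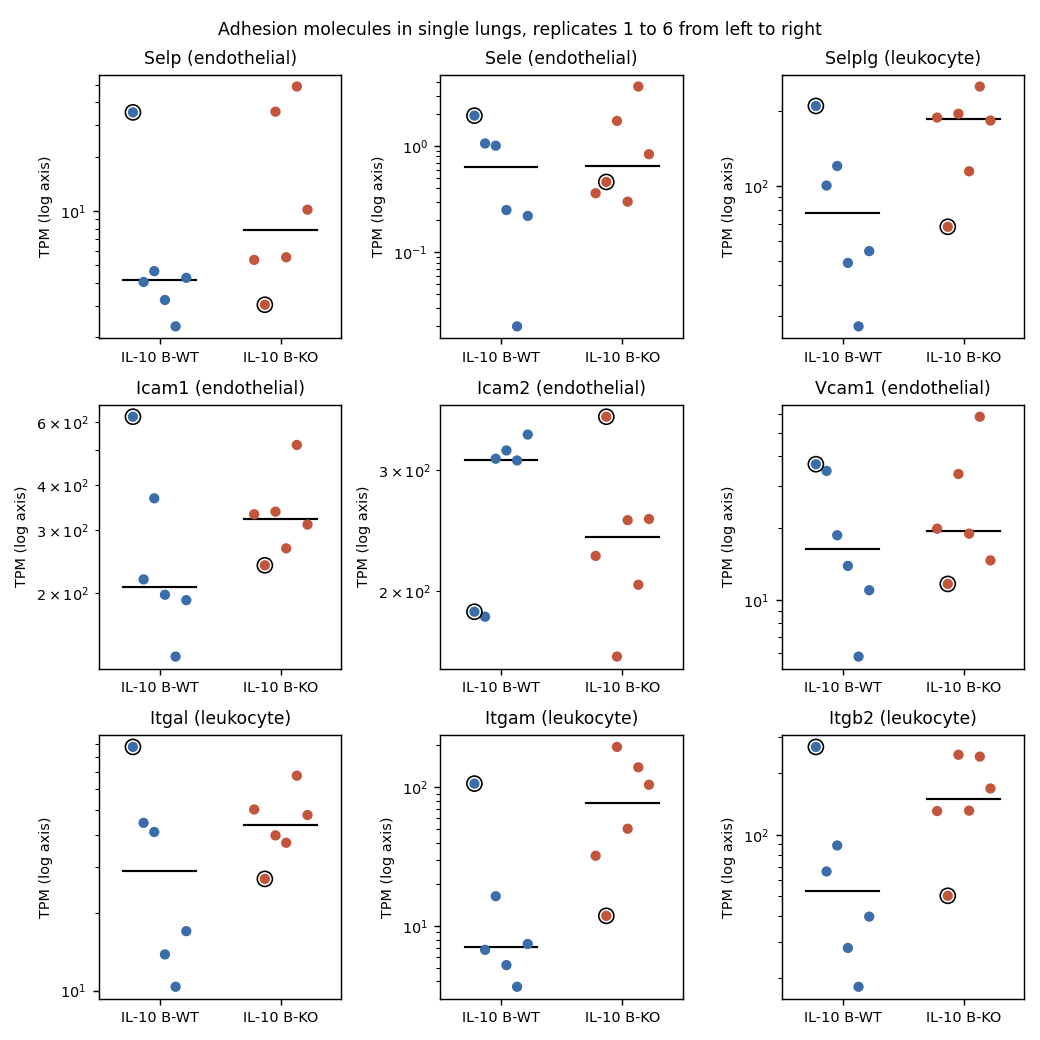
TPM of each member in single lungs (vertical log axis) by genotype, replicates 1 to 6 from left to right, with black bars at the group medians and circles around WT1 and KO2. The circled WT1 is the highest control lung for every member but Icam2, and every pair of groups overlaps.

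Itgam, the CD11b chain of Mac-1 carried by neutrophils, monocytes and macrophages, had the largest difference of the members. It was at 3.66 to 106.2 TPM in control lungs (median 7.10) and at 11.9 to 195.1 TPM in knockout lungs (median 77.2). The 5 control lungs other than WT1 lay at or below 16.4 TPM, and the 5 knockout lungs other than KO2 at or above 32.1 TPM. Over these lungs 9.1% of all tested genes were likewise higher in IL-10 B-KO without overlap. The means were 24.3 ± 40.4 and 88.8 ± 70.3 TPM (SD, n = 6). The log2 fold change was 2.35 (SE 0.79, limma adjusted p = 0.290), and the two-sided exact permutation test of this single value gave p = 0.0390, where 6 against 6 lungs can go no lower than 0.00216. Over 5 lungs per genotype it was 3.44 (SE 0.47, limma adjusted p = 0.00161), with means of 7.90 ± 4.98 and 104.2 ± 66.3 TPM. Without WT1 alone it was 2.98 (adjusted p = 0.0273).

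Itgb2, the CD18 chain shared by LFA-1 and Mac-1, differed by less and was less variable. Its control values ranged from 18.0 to 269.6 TPM (median 53.0) and its knockout values from 50.3 to 246.8 TPM (median 150.1). WT1 was the highest of all 12 lungs and the other control lungs reached 88.8 TPM, while 5 knockout lungs were at 130.9 TPM or more. Without WT1 and KO2, 9.1% of all tested genes were also higher without overlap. Its log2 fold change was 1.33 (SE 0.57, limma adjusted p = 0.375; exact permutation p = 0.0693). It was 2.07 over 5 lungs per genotype (adjusted p = 0.00451) and 1.77 without WT1 (adjusted p = 0.0451).

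Itgal, the CD11a chain that pairs with Itgb2 to form LFA-1 on most leukocytes, differed less. It was at 10.4 to 87.3 TPM in control lungs (median 29.0) and 27.0 to 67.6 TPM in knockout lungs (median 43.7). The knockout values lay wholly inside the control range. Itgal gave a log2 fold change of 0.65 (SE 0.44, limma adjusted p = 0.532; exact permutation p = 0.221), 1.11 over 5 lungs per genotype (adjusted p = 0.0620) and 0.38 without WT5.

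Selplg, which encodes the PSGL-1 backbone found on nearly all leukocytes, was at 27.2 to 209.7 TPM in control lungs (median 77.4). In knockout lungs it was at 68.4 to 251.1 TPM (median 185.8). KO2 was the only knockout lung below 114 TPM, and WT1 the only control lung above 120.2 TPM. For Selplg the log2 fold change was 1.02 (SE 0.45, limma adjusted p = 0.379; exact permutation p = 0.0714). Without WT1 and KO2 it was 1.54 (adjusted p = 0.0142).

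Selp had the most uneven distribution of the 4 tested endothelial members. It was at 2.30 to 35.2 TPM in control lungs (median 4.16) and 3.03 to 49.0 TPM in knockout lungs (median 7.87). Only WT1 (35.2 TPM), KO3 (35.5 TPM) and KO5 (49.0 TPM) exceeded 10.2 TPM, so high Selp occurred in both genotypes. The log2 fold change was 0.92 (SE 0.69, limma adjusted p = 0.564; exact permutation p = 0.227). Over 5 lungs per genotype, where every knockout lung was above every control lung, it was 1.73 (adjusted p = 0.0463). The exact permutation p was then 0.00794, the smallest that 5 against 5 lungs can give, and 9.1% of all genes in that fit were likewise higher without overlap. Without KO5 or KO3 the fitted value over the remaining lungs was 0.51 and 0.60 (adjusted p = 0.844 and 0.808).

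Selp is also made by megakaryocytes, and 8 platelet and megakaryocyte markers summed to 77.6 to 180.2 TPM in control lungs and 85.9 to 252.4 TPM in knockout lungs. In WT1, KO3 and KO5 that sum was 98.7, 252.4 and 93.1 TPM, and of the KO3 sum 205.7 TPM was Pf4 alone. Sele stayed low. It was at 0.02 to 1.94 TPM in control lungs (median 0.63) and 0.30 to 3.65 TPM in knockout lungs (median 0.65). The same 3 lungs held its highest values, 1.94, 1.73 and 3.65 TPM. Without a filter on low values its log2 fold change was 0.28 (SE 0.36, limma adjusted p = 0.766; exact permutation p = 0.487).

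Icam1, the ligand of both LFA-1 and Mac-1, was abundant in every lung. It was at 132.8 to 620.4 TPM in control lungs (median 207.8) and 238.7 to 517.5 TPM in knockout lungs (median 320.9). WT1 was the highest lung, and every knockout value lay inside the control range. Icam1 differed by a log2 fold change of 0.36 (SE 0.33, limma adjusted p = 0.630; exact permutation p = 0.329). Leaving out WT1 and KO2 gave 0.71 (adjusted p = 0.0871), leaving out WT5 gave 0.18 and quantile normalization 0.13.

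Vcam1, the ligand of VLA-4, was at 5.79 to 37.0 TPM in control lungs (median 16.3) and 11.7 to 58.4 TPM in knockout lungs (median 19.4). KO5 alone exceeded the highest control lung. The log2 fold change was 0.40 (SE 0.45, limma adjusted p = 0.706; exact permutation p = 0.439), and 0.80 over 5 lungs per genotype (adjusted p = 0.241). It was 0.12 without WT5 and 0.13 without KO5. Icam2, the other LFA-1 ligand, was the steadiest member, at 183.5 to 337.7 TPM in control lungs (median 310.5) and 160.6 to 358.5 TPM in knockout lungs (median 239.3). KO2 was its highest lung and WT1 and WT2 were the lowest control lungs, whereas 7 of the other members had their lowest knockout value in KO2. The log2 fold change was -0.18 (SE 0.22, limma adjusted p = 0.735; exact permutation p = 0.450), -0.40 over 5 lungs per genotype (adjusted p = 0.210) and -0.07 without KO3.

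Over 5 lungs per genotype 4 of the 8 tested members passed the threshold (Selp, Selplg, Itgam and Itgb2, all higher), beside 9.69% of all 14762 genes in either direction. At an unadjusted p of 0.05 or less 6 were higher, Icam1 and Itgal added, beside 21.8% of all genes. Without WT1 alone 2 passed (Itgam and Itgb2), beside 2.3% of all genes that passed as higher. With all 12 lungs and array quality weights, Itgam passed (log2 fold change 2.43, limma adjusted p = 0.0405). The share of all genes that passed with these weights is not given here, so this call cannot be set against it.

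**Figure D2:**
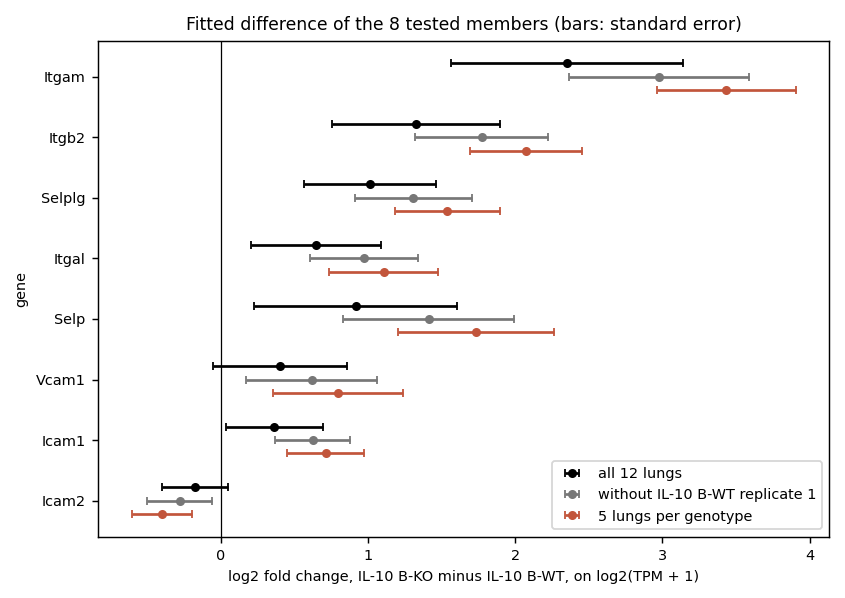
Fitted log2 fold change of the 8 tested members, IL-10 B-KO minus IL-10 B-WT on log2(TPM + 1), with bars of 1 standard error. Itgam moved from 2.35 over 12 lungs (black) to 2.98 without WT1 (grey) and 3.44 over 5 lungs per genotype (red), and Icam2 was below 0 in all 3.

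By mean TPM, the order in control lungs was Icam1 (287.8 ± 180.8), Icam2 (274.9 ± 70.3), Selplg (93.5 ± 66.6), Itgb2 (85.1 ± 94.1), Itgal (35.6 ± 29.1), Itgam (24.3 ± 40.4), Vcam1 (20.1 ± 12.8), Selp (8.95 ± 12.9) and Sele (0.75 ± 0.73). Some neighbours in that order were not distinct, since Icam1 exceeded Icam2 in 3 of 6 lungs and Itgam exceeded Vcam1 in 1 of 6. In knockout lungs the order was Icam1 (333.6 ± 97.9), Icam2 (242.7 ± 66.6), Selplg (166.8 ± 64.9), Itgb2 (161.7 ± 74.8), Itgam (88.8 ± 70.3), Itgal (44.9 ± 13.8), Vcam1 (26.2 ± 17.5), Selp (18.1 ± 19.3) and Sele (1.22 ± 1.30). Icam1 was above Icam2 in 5 of 6 of these lungs and Itgam above Itgal in 4 of 6. The spread between lungs was widest for Sele, Itgam and Selp, whose highest lung was 182, 53.3 and 21.3 times the lowest, and narrowest for Icam2, at 2.23 times. The Sele ratio rests on a lowest value of 0.02 TPM.

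To set each endothelial molecule against its leukocyte partner, the log2(TPM + 1) values were subtracted within each lung, so that a library's overall level matters less. Icam1 minus Itgam was 4.35 ± 0.92 in control and 2.36 ± 1.24 in knockout lungs, a difference of -1.99 (two-sided exact permutation p = 0.0173, 0.104 after Benjamini-Hochberg adjustment over the 6 pairs). The knockout values lay below every control value in 4 of 6 lungs, and without WT1 and KO2 the difference was -2.72 (exact permutation p = 0.00794). Sele minus Selplg was -5.55 ± 0.48 and -6.29 ± 0.58, a difference of -0.74 (exact permutation p = 0.0390, adjusted 0.117), again with 4 of 6 below. With a pseudocount of 0.1, to which the low Sele values are sensitive, it was -0.32 (exact permutation p = 0.489). The other 4 pairs had larger p. The differences between genotypes were -0.10 for Selp minus Selplg (exact permutation p = 0.836), -0.28 for Icam1 minus Itgal (p = 0.251), -0.82 for Icam2 minus Itgal (p = 0.245) and 0.25 for Vcam1 minus Itga4 (p = 0.348). No pair passed the adjustment over 6. By construction a pair difference is the log2 difference of the endothelial member minus that of its partner. These were 0.36 for Icam1 and 2.35 for Itgam, and 0.28 for Sele and 1.02 for Selplg. The pair results are thus not independent of the single results, and in both pairs the leukocyte member had the larger difference.

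**Figure D3:**
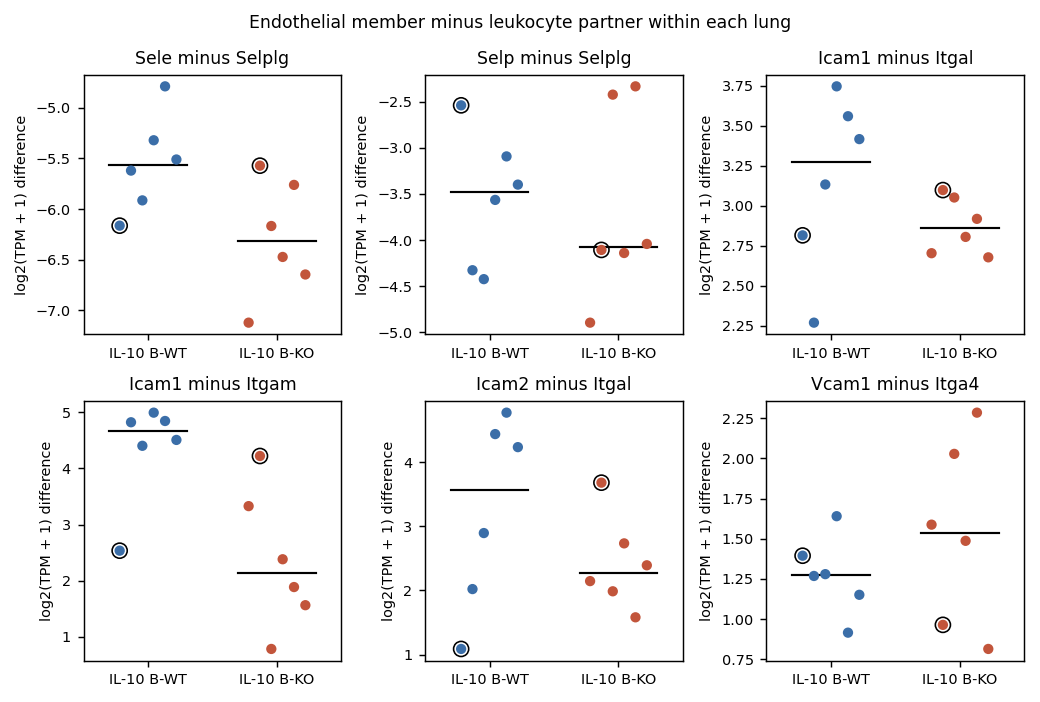
Endothelial member minus leukocyte partner within each lung, as a difference of log2(TPM + 1), by genotype, with bars at the medians and circles around WT1 and KO2. For Icam1 minus Itgam the control lungs other than WT1 lie at 4.40 to 4.99 and the knockout lungs at 0.79 to 4.22.

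The integrin chains were also set against each other, as a description of contrasts chosen after the values were seen and with no test. Itgam minus Itgb2 was -2.22 ± 0.57 in control and -1.20 ± 0.70 in knockout lungs. Itgal minus Itgb2 was -1.03 ± 0.37 and -1.71 ± 0.57. Markers of cells that carry these chains are given beside them. All 11 neutrophil markers had a higher fitted level in IL-10 B-KO, 8 of them at an unadjusted p of at most 0.05, and so did all 10 markers of monocytes and interstitial macrophages, 9 of them at that p, with sums of 224 to 2766 and 498 to 3632 TPM. Of all tested genes 63.2% had a higher fitted level and 6.83% were higher at that p. None of either list passed the threshold. Of 8 T cell markers 4 were higher and 4 lower, with sums of 25.1 to 229.7 and 36.3 to 241.9 TPM. The part of these markers in the levels of the integrin chains was not tested.

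Pairs of members were correlated over the 12 lungs and within each genotype. Itgam and Itgb2 had Pearson r = 0.953 and Spearman rho = 0.958 over 12 lungs (permutation p = 6e-05 and 0.00018, adjusted over 6 relations), with r = 0.946 within IL-10 B-WT, 0.962 within IL-10 B-KO and 0.942 without the 2 lungs farthest from the median of Itgam. Itgal and Itgb2 had r = 0.918 and rho = 0.811 (adjusted permutation p = 6e-05 and 0.00426), with r = 0.821 without the 2 farthest lungs. Within IL-10 B-WT r was 0.972 (exact permutation p = 0.00278), and within IL-10 B-KO 0.767 with rho 0.43 (exact permutation p of r = 0.0861). For Itgal and Itgam r was 0.774 and rho 0.699 (adjusted permutation p = 0.00297 and 0.0148), and r was 0.634 without the 2 farthest lungs. Within the genotypes r was 0.855 and 0.630 (exact permutation p = 0.0125 and 0.188).

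For Icam1 and Vcam1 r was 0.793 and rho 0.776 (adjusted permutation p = 0.00297 and 0.00661), and r was 0.665 without the 2 farthest lungs. Within the genotypes r was 0.762 and 0.910 (exact permutation p = 0.0708 and 0.0125). For Sele and Selp r was 0.890 and rho 0.720 over 12 lungs (adjusted permutation p = 0.00046 and 0.0122). Without the 2 farthest lungs r was 0.754, and within the genotypes 0.811 and 0.941 (exact permutation p = 0.0111 and 0.00833). For Selp and Selplg r was 0.792 and rho 0.923 over 12 lungs (adjusted permutation p = 0.00297 and 0.0003). Since Selp fell into 3 high lungs and 9 low ones, its relations are also given within the 9 low lungs, chosen after the values were seen. There Selp and Selplg had r = 0.843 and rho = 0.833 (exact permutation p = 0.00402 and 0.00827, unadjusted), whereas Sele and Selp had r = 0.501 and rho = 0.35 (exact permutation p = 0.169 and 0.359). In these 9 lungs Icam1 and Vcam1 had r = 0.601 (exact permutation p = 0.0857).

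After each genotype was centred on its own mean, r between members other than Icam2 was 0.67 to 0.96 over their 28 pairs, and r between Icam2 and the other 8 was -0.80 to -0.54. These are descriptions over the same 12 libraries, and all TPM of a library share its total. Of the marker lists treated in the same way, the mesothelial list had r = 0.91 with Vcam1 and -0.88 with Icam2. Its 4 genes summed to 7.03 to 90.3 TPM in control lungs and 47.1 to 135.1 TPM in knockout lungs, and their part in the levels of Vcam1 and Icam2 was not tested.

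**Figure D4:**
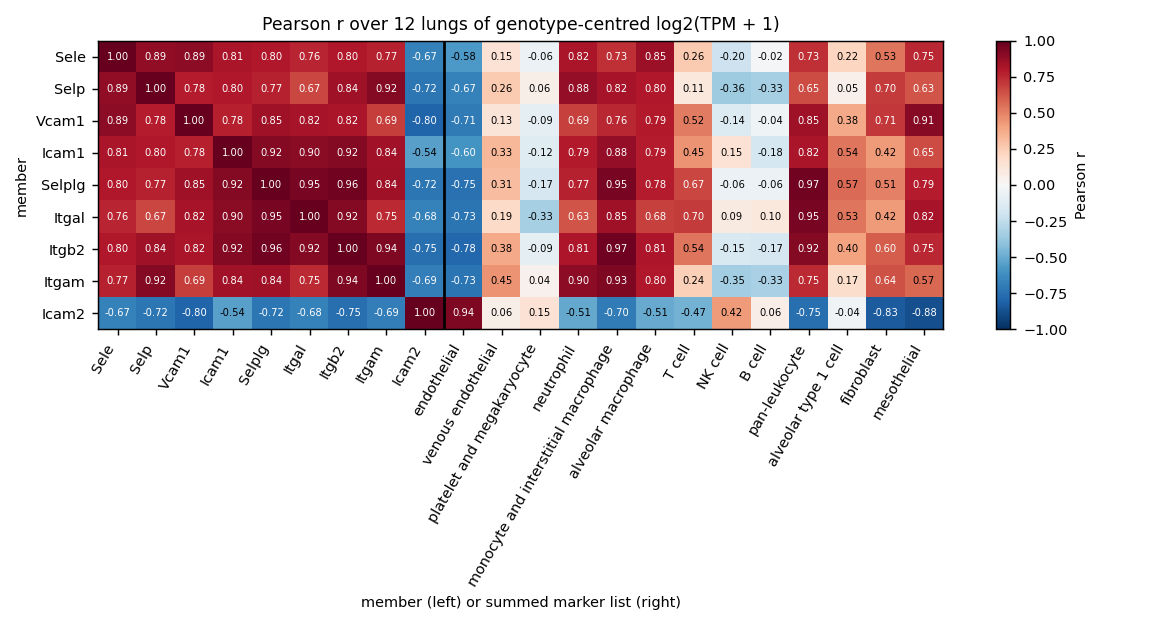
Pearson r over 12 lungs of genotype-centred log2(TPM + 1), rows for members and columns for members (left of the black line) and summed marker lists (right), on a colour scale from -1 to 1. Icam2 stands alone, with r of -0.80 to -0.54 to the other members and 0.94 to the endothelial list.

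Icam2 varied with the general endothelial markers. The relations to marker sums were chosen after the values were seen. Against the summed endothelial markers, Icam2 had r = 0.927 and rho = 0.909 over 12 lungs (permutation p = 0.00108 and 0.0009, adjusted over 18 relations), with r = 0.907 without the 2 farthest lungs and 0.958 and 0.924 within the genotypes. Icam1 had r = -0.65, Vcam1 r = -0.73 and Sele r = -0.60 (adjusted permutation p = 0.0264, 0.0111 and 0.0403). Their rho of -0.56, -0.75 and -0.59 had adjusted permutation p of 0.0669, 0.0181 and 0.0551. Without the 2 farthest lungs, WT6 and KO2, r was -0.60, -0.67 and -0.55, with unadjusted permutation p of 0.0656, 0.0317 and 0.104. Within a genotype no exact permutation p of these 3 genes was below 0.0569. Selp had r = -0.72 and rho = -0.62 over 12 lungs (adjusted permutation p = 0.0127 and 0.0511). Within its 9 low lungs, Selp had r = -0.60 and rho = -0.42 (exact permutation p = 0.0822 and 0.270). For the 4 leukocyte members r was between -0.82 and -0.77 (adjusted permutation p = 0.00603 to 0.0101). The sum was 2391 TPM in WT1 and 4554 TPM in KO2, against 2934 TPM in WT2, 4230 to 5177 TPM in WT3 to WT6 and 2480 to 3084 TPM in the other knockout lungs. Fitted levels in IL-10 B-KO were lower for 11 of the 12 endothelial markers, 2 of them at an unadjusted p of at most 0.05, and none passed the threshold. Of all tested genes 63.2% had a higher fitted level, and 5.71% were lower at that p. The sum of 5 venous endothelial markers was 200.3 to 445.7 TPM in control and 280.7 to 548.5 TPM in knockout lungs.

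**Figure D5:**
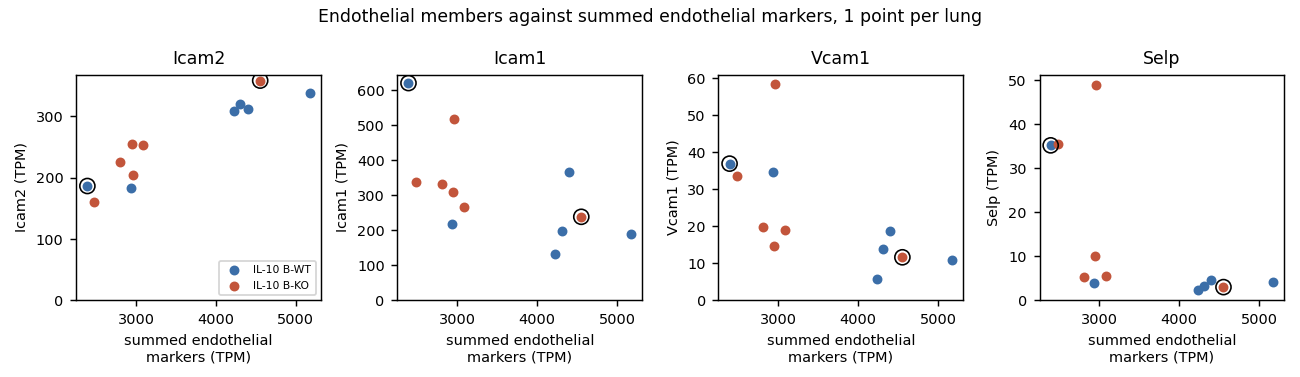
TPM of Icam2, Icam1, Vcam1 and Selp against the sum of 12 endothelial markers in TPM, 1 point per lung, blue for IL-10 B-WT and red for IL-10 B-KO, with circles around WT1 and KO2. Icam2 climbs with the sum (r = 0.927), whereas WT1, at the lowest sum (2391 TPM), has the highest Icam1.

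Against the summed neutrophil markers, Itgam had r = 0.940 and rho = 0.944 (permutation p = 0.00018 for both, adjusted over the same 18), with r = 0.945 without the 2 farthest lungs and 0.891 and 0.922 within the genotypes. Itgb2 had r = 0.866 and rho = 0.888, and Selplg r = 0.839 and rho = 0.874, with adjusted permutation p of 0.00168 and 0.000945 for Itgb2 and 0.00274 and 0.00166 for Selplg. Icam1, on the endothelial side, had r = 0.766 and rho = 0.811 (adjusted permutation p = 0.00762 and 0.00627). Selp had r = 0.843 and rho = 0.916 over 12 lungs (adjusted permutation p = 0.00335 and 0.0009). Within its 9 low lungs, Selp had r = 0.879 and rho = 0.85 (exact permutation p = 0.00342 and 0.00607, unadjusted). WT1 held 2587 TPM of these markers, against 395 to 1237 TPM in the other control lungs, and KO2 held 1180 TPM, the lowest knockout value. KO1 (1470 TPM) and KO4 (2147 TPM) were next above KO2. Sele, Vcam1 and Itgal had r of 0.66 to 0.74 with the neutrophil sum (adjusted permutation p = 0.0101 to 0.0254), and Icam2 had r = -0.53 (adjusted permutation p = 0.0813). With each genotype centred, that sum had r = 0.90 with Itgam, 0.81 with Itgb2, 0.77 with Selplg and 0.79 with Icam1. The monocyte and interstitial macrophage sum had 0.93, 0.97, 0.95 and 0.88 with the same genes. High r was not particular to these 2 lists. The pan-leukocyte sum had 0.75, 0.92, 0.97 and 0.82 with the same genes, and the alveolar macrophage sum 0.80, 0.81, 0.78 and 0.79. Sele and Selp had 0.82 and 0.88 with the neutrophil sum, and 0.73 and 0.82 with the monocyte and interstitial macrophage sum. The part of any of these marker lists in the results was not tested.

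Genes whose genotype-centred pattern was most like a member were found over all tested genes. Itgb2 was closest to Sh3bp2, Csf2rb and Pira2 (r of 0.991 to 0.994), Itgam to Slc16a3, Cd33 and Acp2 (0.985 to 0.991), and Selplg to Evi2a, Abracl and Ttc7 (0.986 to 0.992). Itgal was closest to Zc3hav1, Gpr132 and Bid (0.982 to 0.984), Selp to Il13ra1, Itga5 and Ssr3 (0.981 to 0.985), and Icam1 to Orai1, Tor1aip2 and Arhgef37 (0.975 to 0.979). Vcam1 was closest to Egr2, Ap4b1 and H13 (0.973 to 0.976), Sele to Mesd, Cmtm6 and Naa25 (0.967 to 0.972), and Icam2 to 0610009E02Rik, Slc9a3r2 and Rgs12 (0.943 to 0.951). These r describe 12 lungs and were picked as the highest over all tested genes.

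The rest of the adhesion cascade was read from 4 lists of 50 genes, 45 of them tested. None passed the threshold in the 12 lungs. Of the 45, 34 had a higher and 11 a lower fitted level in IL-10 B-KO, with a median log2 fold change of 0.29, and 5 in each direction reached an unadjusted p of 0.05. Over all tested genes the median was 0.10, 63.2% were above 0, and 6.83% were higher and 5.71% lower at that p. By list, 11 of 15 selectin ligand scaffolds and glycan enzymes, 6 of 6 other integrin chains, 12 of 14 genes that activate or anchor integrins and 5 of 10 junctional molecules fitted higher. With 5 lungs per genotype, where 9.69% of all genes passed, 11 of the list genes did (Cd44, Gcnt1, B4galt1, Chst2, Itga9, Fermt3, Rasgrp2, Apbb1ip, Fyb, Vav1 and Sirpa).

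Among selectin ligand scaffolds and glycan enzymes the smallest p was that of Chst2, a sulfotransferase that modifies selectin ligands, at 2.65 to 7.58 TPM in control and 1.01 to 4.16 TPM in knockout lungs (log2 fold change -1.04, SE 0.27, limma adjusted p = 0.140). All control lungs but WT1 were above all knockout lungs. The share of all genes that separate in this way without WT1 is not given here. Fut4, a fucosyltransferase that helps build the selectin-binding sugar, was at 1.80 ± 1.09 and 3.01 ± 0.93 TPM (0.58, SE 0.26, adjusted p = 0.381).

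Itga4, the VLA-4 chain that meets Vcam1, was at 2.60 to 13.8 TPM in control and 5.49 to 11.2 TPM in knockout lungs (0.15, SE 0.34, limma adjusted p = 0.864). Among the other integrin chains the smallest p was that of Itgae, the CD103 chain of mucosal T cells and some dendritic cells (0.52, SE 0.30, adjusted p = 0.474).

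Fyb, an adaptor that links receptor signals to integrins, was at 28.1 ± 33.4 and 55.3 ± 25.9 TPM (1.49, SE 0.65, limma adjusted p = 0.378). Rasgrp2, the exchange factor that switches on Rap1 in platelets and leukocytes, had a lower fitted level in IL-10 B-KO, at 129.1 ± 44.4 and 72.3 ± 30.4 TPM (-0.85, SE 0.29, adjusted p = 0.298). Jam3, a junctional adhesion molecule that can bind Mac-1, was at 10.2 ± 2.51 and 6.02 ± 1.75 TPM (-0.68, SE 0.22, adjusted p = 0.258), and Sirpa, the CD47 receptor of myeloid cells, at 79.6 ± 58.3 and 132.8 ± 45.0 TPM (0.88, SE 0.38, adjusted p = 0.372).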

How the data were processed

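Whole-lung RNA-seq of 12 mice (6 IL-10 B-WT, 6 IL-10 B-KO, all given LPS) was analysed from 1 table of gene-level TPM as the authors deposited it. The submitters' processing notes name fastp, HISAT, RSEM and the build GRCm38.p5, with no versions. The methods name several tools for differential expression without saying which was used. Of 55414 genes, 23785 were at 0 in every library. No 2 libraries were identical, and all per-sample columns were used. TPM totals were 991646 to 994430, and 21380 to 24138 genes were above 0. Since TPM hold no read depth, no counting interval can be given, and the number of lungs limits the precision. TPM are shares, so a class that takes much of a library (immunoglobulin genes took 15.4% in WT2) lowers the rest.

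Genes with at least 1 TPM in at least 6 libraries (15148) were fitted as log2(TPM + 1) in limma 3.58.1 (R 4.3.3, empirical Bayes with trend), with Benjamini-Hochberg adjustment over all of them. The pseudocount of 1 understates changes of low genes. A gene passed when its adjusted p was 0.05 or less and its log2 fold change 1 or more in either direction. Single values and within-lung pairs were tested by two-sided exact permutation (924 arrangements), and correlations by 100000 permutations over 12 lungs or exactly over 9 or fewer (SciPy 1.17.1 and NumPy 2.4.6 under Python 3.11.15, with pandas 2.3.3). The fit was also run on simulated data with known changes, whose outcome is not given here. Lungs were grouped by their labelled genotype, each taken as 1 mouse. The labels name no batch.

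The members, lists, pairs and tests were chosen with earlier results of these data known. The text names all 9 members, from each pathway list the tested gene of smallest p in each direction where none passed, the 3 genes most like each member by genotype-centred r, and Itga4. Marker lists are given by counts and sums. Gene positions are those of GENCODE M21 (GRCm38, 9 of 9 identifiers matched). Promoters of 4 members were taken from RefSeq. Alternatives changed the pseudocount, filter, scaling, library weights, threshold and the lungs included.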

Additional observations from a re-analysis of the deposited data

Results flagged for a closer look

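Of 36 groups of 6 lungs examined (members and within-lung pairs by genotype), 5 held a highest or lowest lung whose gap to its neighbour, as a share of the whole range, was above Dixon's critical value for 6 samples. That value flags about 1 in 20 groups of independent normal values. Here the members were examined as TPM and the groups share lungs, so the rate need not hold. WT1 was the lung in 4 of them. Its Selp was 35.22 TPM with the nearest IL-10 B-WT lung at 4.65 TPM, its Itgam was 106.21 TPM against 16.42 TPM, and its Itgb2 was 269.62 TPM against 88.77 TPM. In WT1, Icam1 minus Itgam was 2.54 on the log2 scale and the nearest IL-10 B-WT lung was at 4.40. The other was Icam1 in KO5, at 517.51 TPM with the next IL-10 B-KO lung at 337.01 TPM.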

How the results depend on the processing

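With array quality weights 1 member (Itgam, limma adjusted p = 0.0405) and 1 further cascade gene (Chst2) passed. For these weights the share of all genes that passed is not given here. Over 5 lungs per genotype 4 members and 11 cascade genes passed, and 6 members reached an unadjusted p of 0.05. In that fit 9.69% of all genes passed and 21.8% were higher at that unadjusted p. Leaving out 1 lung at a time gave 0 to 2 members and 0 to 3 cascade genes past the threshold. It gave 1 to 6 members at the unadjusted p, with 6 without WT1 and 1 (Itgam) without WT4, WT5, WT6, KO3, KO5 or KO6. The shares of all genes at that p in these fits are not given here. Without WT1, 2.3% of all genes passed the threshold as higher. For the 8 tested members no fitted difference changed sign in any of the 21 alternatives. Median centring and quantile normalization took the median of all genes from 0.10 to -0.01 and 0.01.

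Within lungs, Sele minus Selplg lost its unadjusted call at a pseudocount of 0.1 (-0.32, exact permutation p = 0.489), and without any 1 of WT2, WT4, WT5, WT6, KO1, KO3, KO4 or KO6 (exact permutation p of 0.0563 to 0.0823), with values of -0.88 to -0.57 over all single omissions. Selp minus Selplg turned its sign at that pseudocount (2.4e-05), under quantile normalization (0.029) and over 5 lungs per genotype (0.19), and ranged from -0.36 to 0.15 with 1 lung left out (0.10 without WT1, 0.15 without KO1). Icam1 minus Itgal ranged from -0.46 to -0.16, with an exact permutation p of 0.0281 without WT2. Icam2 minus Itgal was -1.51 over 5 lungs per genotype (exact permutation p = 0.0397). The causes were not tested. Itgam alone had an exact permutation p above 0.05 without WT2, WT4, WT5, WT6, KO3, KO5 or KO6 (up to 0.0693).

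Replicate numbers showed no pairing of the lungs in expression, as deviations of same-numbered lungs correlated at -0.29 to 0.05. A low correlation cannot exclude that same-numbered mice were paired. With the number as a replicate block limma called 0 members, 2 reached an unadjusted p of 0.05, and the exact paired sign-flip permutation test gave p = 0.0625 for Sele minus Selplg (-0.74) and 0.0938 for Icam1 minus Itgam (-1.99). Correlations without the 3 lungs highest in Selp, marker sums included, were added after seeing the data. Under quantile normalization r of Icam1 and Vcam1 was 0.53 (permutation p = 0.0776).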

Other observations

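Glycam1 and Madcam1, ligands of lymphocyte homing made by specialised venules, were below the filter and at or near 0 in all lungs but WT2. Glycam1 was at 139.8 TPM in WT2 and at most 0.97 TPM elsewhere, and Madcam1 at 2.93 TPM in WT2 and at most 0.34 TPM elsewhere. WT2 was also the lung with the most Cd79a (258.6 TPM) and the largest sum of 6 B cell markers, 795.0 TPM against 66.0 to 116.1 TPM in the other IL-10 B-WT lungs.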
